A study of Mus musculus with 24 samples.

Results

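The cytosolic ribosomal protein genes encode the proteins of the ribosomes that translate messenger RNA in the cytosol. They were chosen by symbol, as the mouse protein-coding genes of chromosomes 1 to 19 whose names begin with Rps, Rpl or Rplp followed by a digit, without the Rps6k kinases. The rule found 86 of 20665 protein-coding genes in the RefSeq annotation of GRCm38.p6 (mm10). They comprised 29 genes of the small subunit, 40 of the large subunit and 3 of the stalk, 72 subunit genes in all. A further 13 were paralogs or copies (Rpl3l, Rpl7l1, Rpl10l, Rpl22l1, Rpl31-ps12, Rpl32l, Rpl34-ps1, Rpl36al, Rpl37rt, Rpl39l, Rps23rg1, Rps27l and Rps27rt), and 1, Rps19bp1, is no part of the ribosome although its symbol matches. Rpsa, which the symbol rule does not reach, was counted with a list of other translation genes, and genes of the X chromosome were not analysed here.

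The data came from lung endothelial cells of Dnmt3a KO mice and of WT mice, isolated by fluorescence-activated sorting. Dnmt3a encodes a DNA methyltransferase that places methyl groups on unmethylated cytosines. The labels give no age, sex, strain, allele or Cre driver, and do not say whether Dnmt3a was absent from endothelial cells alone. ACT-seq, in which an antibody carries a transposase to its histone mark and the transposase tags the DNA there, was done for H3K4me3, H3K27ac, H3K4me1 and H3K27me3, with permeabilised yeast nuclei added as a spike-in. The labels name 24 samples, 3 for each of the 8 combinations of mark and genotype, and the deposited data hold 1 list of peaks for each combination. No spread between mice, no depth and no peak height entered any comparison, and no difference between KO and WT could be tested. Every interval below is at 95% and covers counting only, over genes or, for promoter motifs and peak edges, over annotated starts. Some genes have several starts that lie close together, and those starts are not independent.

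A ribosome has a small subunit, which reads the messenger RNA, and a large subunit, which joins amino acids. The proteins of both are made in matched amounts in every growing cell, and their genes are a standard example of constitutively active housekeeping genes. Their promoters are known for a pyrimidine tract at the start of transcription that begins with a C (the TOP motif, through which mTOR signalling controls translation of these messages), for sites of ETS family factors such as GABP, and for a general lack of a TATA box. H3K4me3 and H3K27ac mark active promoters, H3K4me1 marks enhancers and promoter flanks, and H3K27me3 is placed by Polycomb complexes at silent genes.

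The promoters below come from RefSeq (GRCm38.p6), which listed 77 starts for 65 of the 86 genes. They were shown because Rpl7a and Rps10 had the highest and Rps15 one of the lowest KO over WT ratios of H3K4me3 peak width, and because Rps6 and Rplp0 encode well studied proteins of the small subunit and the stalk. Each runs 5′ to 3′ on the strand of the gene from 100 bases before to 20 bases after the annotated start. Capitals mark a run of pyrimidines (C or T) that begins with C near the start and the ETS core CCGGAAG. Rpl3, chosen by the same rule, is named only.
Rpl7a, chr2:26910707-26910826, plus strand: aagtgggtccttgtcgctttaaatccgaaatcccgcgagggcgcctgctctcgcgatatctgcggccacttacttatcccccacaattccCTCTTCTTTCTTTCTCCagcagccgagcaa
Rps10, chr17:27635225-27635344, minus strand: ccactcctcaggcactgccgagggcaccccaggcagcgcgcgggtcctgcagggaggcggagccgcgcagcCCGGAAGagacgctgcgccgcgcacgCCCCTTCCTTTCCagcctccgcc
Rps15, chr10:80292331-80292450, plus strand: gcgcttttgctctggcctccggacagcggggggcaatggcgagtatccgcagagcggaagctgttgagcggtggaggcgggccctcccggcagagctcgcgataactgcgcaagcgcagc
Rps6, chr4:86857348-86857467, minus strand: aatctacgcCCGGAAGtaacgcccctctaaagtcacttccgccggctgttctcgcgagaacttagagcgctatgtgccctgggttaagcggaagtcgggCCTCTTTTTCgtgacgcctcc
Rplp0, chr5:115559367-115559486, plus strand: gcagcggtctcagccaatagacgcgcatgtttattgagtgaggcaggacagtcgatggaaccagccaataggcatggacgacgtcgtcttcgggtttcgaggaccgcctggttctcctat
Counted from the first C within 10 bases of the start, the pyrimidine run was 17 bases long in Rpl7a, 13 in Rps10 and 10 in Rps6. In Rpl7a the bases ttcc directly before the capitals are pyrimidines too, so the whole run there is longer than the part marked. Neither Rps15 nor Rplp0 held a run of at least 5 within 10 bases of its start.

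Over all 77 starts, a C-led run of at least 5 pyrimidines lay within 10 bases of the start at 42 (54.5%, interval 42.8 to 65.9), against 6308 of 20085 starts of all genes (31.4%). A run that began exactly at the annotated start, a definition added after the counts were seen, was found at 15 starts (19.5%) against 2.23% of all. CCGGAAG on either strand, in the 250 bases before and 50 bases after the start, was found at 25 (32.5%, interval 22.2 to 44.1) against 11.9% of all. AAGATGG, the core of the YY1 motif, was found at 12 (15.6%) against 6.29%, although its letters can include a start codon. The Sp1 core GGGCGG was about as common as elsewhere, at 43 starts (55.8%, interval 44.1 to 67.2) against 47.0%. TATAAA between 40 and 15 bases before the start was found at 1 of 77 starts, against 2.58% of all starts. Median GC content was 58.3% against 57.0%. These are matches of letters and not measured sites.

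The deposited lists differed in length. H3K4me3 had 22724 peaks in KO and 14984 in WT, H3K27ac 44484 and 81112, H3K4me1 48458 and 49363, and H3K27me3 31022 and 20918. The part of list length in the counts below was not tested beyond the comparison at equal numbers of peaks. Among endothelial marker genes, 9 of 10 (Cdh5, Emcn, Eng, Esam, Kdr, Pecam1, Robo4, Tek and Tie1) carried H3K4me3 and H3K27ac in KO, and the same 9 did in WT. Of the marker lists of other cells, 1 of 4 epithelial genes (Sftpc, of alveolar type II cells) carried both marks in each genotype, and 0 of 4 leukocyte and 0 of 4 mesenchymal genes did.

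The first comparison asked whether the ribosomal protein genes kept the marks of active promoters in KO. Nearly all subunit genes carried H3K4me3 and H3K27ac in each genotype. A gene was counted as marked where any base of a peak fell on or up to 1000 bp from an annotated gene end. Both ends were used because the gene table gives no strand, and 30 of the 86 genes have an end of another protein-coding gene within 1000 bp of an end of theirs, so that a peak there can belong to the neighbour. H3K4me3 was present at 73 of 86 genes in KO (84.9%, interval 75.5 to 91.7) and at 70 in WT (81.4%, interval 71.6 to 89.0), against 52.3% of all genes in KO and 46.1% in WT. H3K27ac was present at 75 genes in KO (87.2%, interval 78.3 to 93.4) and at 72 in WT (83.7%, interval 74.2 to 90.8), against 47.7% and 51.5% of all genes. Both marks were present in both genotypes at 68 of the 86 (79.1%), against 8606 of 20665 genes (41.6%).

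The genotypes named almost the same genes. H3K4me3 was shared by 70 genes. It was KO only at 3 and WT only at 0 of the 73 genes with it in either genotype (4.11% and 0%), whereas the share over all genes was 13.0% KO only and 1.29% WT only. H3K27ac was shared by 71 genes. It was KO only at 4 of 76 (5.26%) and WT only at 1 of 76 (1.32%), with shares over all genes of 3.76% and 11.0%. These shares over all genes depended on list length. At equal numbers of the widest peaks, H3K4me3 was KO only at 4.11% and WT only at 2.74%, against 8.95% and 3.21% over all genes. At equal numbers, H3K27ac was KO only at 7.89% and WT only at 1.32%, against 6.12% and 6.09% over all genes. The 78 mitochondrial ribosomal protein genes, which encode the ribosomes inside mitochondria and are also constitutively active, had H3K4me3 at 70 in KO and 71 in WT, with 2 KO only and 3 WT only, and H3K27ac at 66 and 67. The list of other translation genes, 32 of 33 found on these chromosomes, had each of these marks at 30 in KO and the same 30 in WT. Larp1, which binds TOP messages, and Ubtf, a factor of ribosomal RNA transcription, were the exceptions and had neither mark at a gene end. Peaks inside Larp1 and Ubtf, farther from their ends, were not counted, so they may still be marked.

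**Figure D1:**
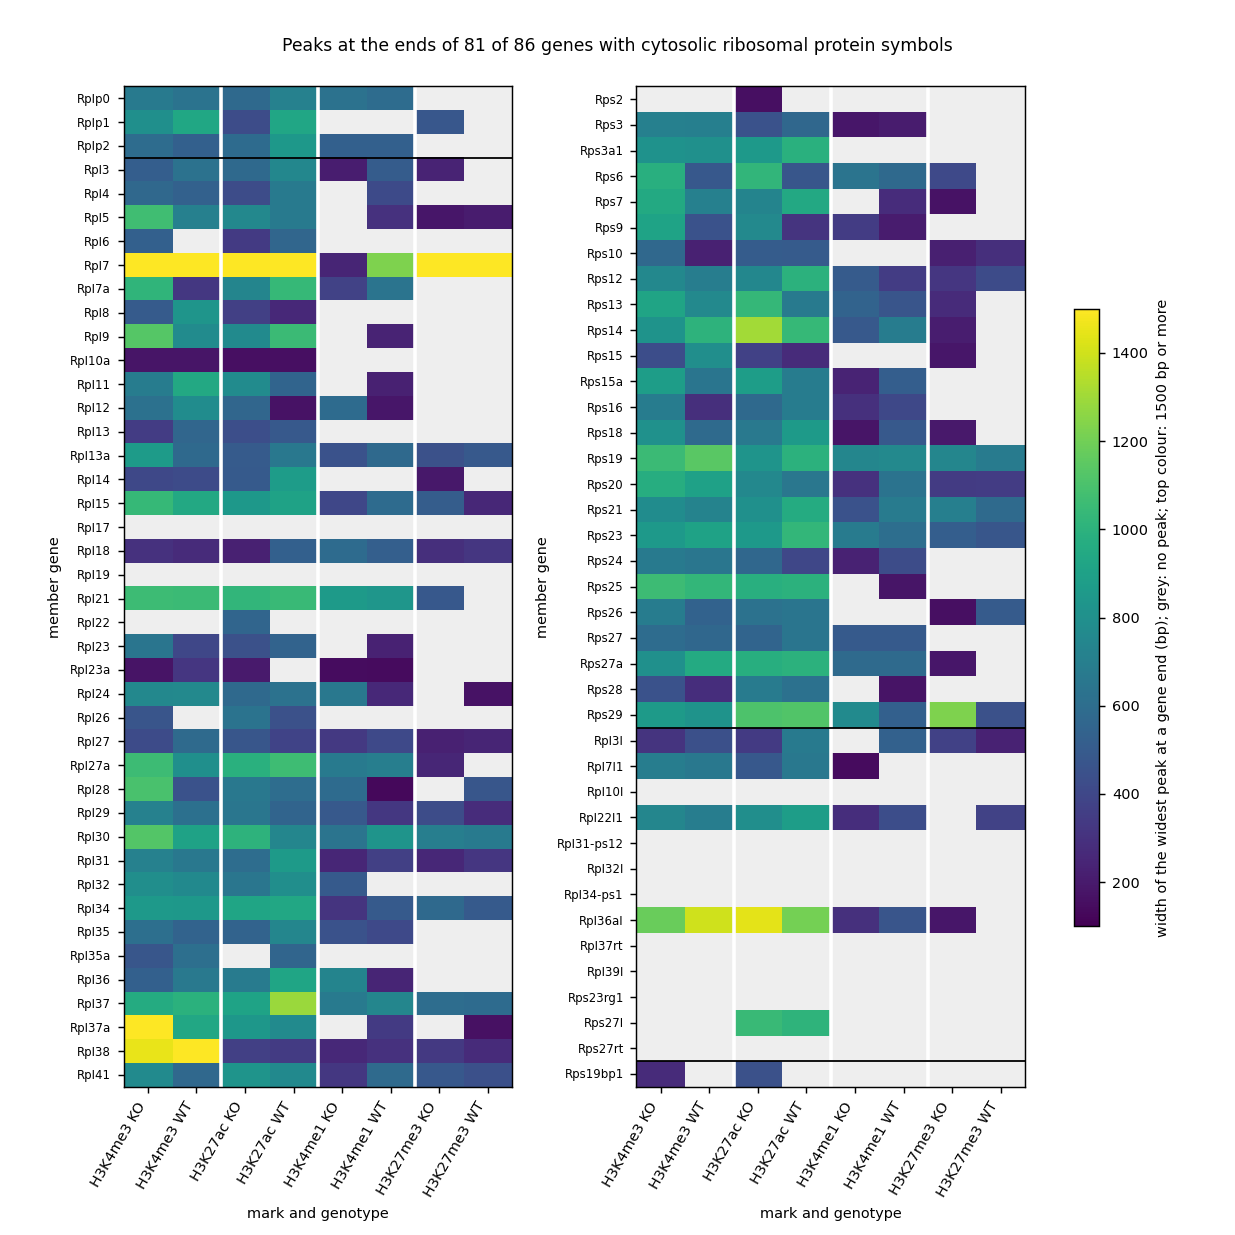
Width in bp (colour) of the widest peak within 1000 bp of either end of 81 of the 86 genes, with stalk and large subunit genes in the left panel and small subunit genes, paralogs or copies and Rps19bp1 in the right panel. KO stands left of WT for each mark, and grey means that no peak was listed. H3K4me3 and H3K27ac fill most rows in both genotypes, at 73 and 75 of 86 genes in KO, while most paralogs are grey throughout.

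By subunit, the small subunit genes had H3K4me3 at 28 of 29 in KO and at 28 in WT, and H3K27ac at 29 in KO and at 28 in WT. The large subunit genes had H3K4me3 at 37 of 40 in KO and at 35 in WT, and H3K27ac at 37 in KO and at 36 in WT. The stalk genes Rplp0, Rplp1 and Rplp2, whose proteins recruit elongation factors, had both marks in both genotypes. The map of peak widths by gene shows these groups, with KO to the left of WT for each mark.

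The stalk genes gave narrower H3K27ac peaks in KO and no common direction of H3K4me3. For Rplp0 the widest H3K4me3 peak was 673 bp in KO and 631 bp in WT, and the widest H3K27ac peak 578 bp and 717 bp. For Rplp1 they were 799 bp in KO and 932 bp in WT for H3K4me3, and 423 bp and 927 bp for H3K27ac. For Rplp2 they were 594 bp in KO and 528 bp in WT for H3K4me3, and 589 bp and 849 bp for H3K27ac.

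Among large subunit genes, Rpl3 encodes a protein near the peptidyl transferase centre, and Rpl5 and Rpl11 encode the partners of the 5S ribosomal RNA, which also bind Mdm2 when ribosome assembly is disturbed. Rpl3 had H3K4me3 peaks of 519 bp in KO and 626 bp in WT. Rpl5 had 1071 bp in KO and 711 bp in WT, and Rpl11 688 bp in KO and 944 bp in WT, so that these partners went opposite ways. In the small subunit, Rps6, whose protein is phosphorylated downstream of mTOR, had wider peaks in KO for both active marks, with H3K4me3 of 982 bp against 488 bp and H3K27ac of 1022 bp against 474 bp. Rps19, mutated in Diamond-Blackfan anaemia in humans, had H3K4me3 of 1054 bp in KO and 1142 bp in WT and H3K27ac of 826 bp and 999 bp.

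The 3 genes with H3K4me3 in KO only were Rpl26, Rpl6 and Rps19bp1. At Rpl26, whose protein lies near the exit tunnel of the large subunit, the KO peak was 470 bp wide (chr11:68901372-68901841) and covered the annotated start at 68901566, and the nearest WT peak was 36372 bp from a gene end. At Rpl6 the KO peak was 531 bp wide (chr5:121204393-121204923), again over the start at 121204501, with the nearest WT peak 10721 bp away. H3K27ac was listed at both genes in both genotypes. At Rps19bp1, which encodes a nuclear protein that binds Rps19, the KO peak was 273 bp wide (chr15:80264180-80264452), and a WT peak lay 1471 bp from a gene end and so outside the window. The promoters of the 2 subunit genes are shown because the KO peak lies over them, a choice made after the values were seen, with capitals as above.
Rpl26, chr11:68901466-68901585, plus strand: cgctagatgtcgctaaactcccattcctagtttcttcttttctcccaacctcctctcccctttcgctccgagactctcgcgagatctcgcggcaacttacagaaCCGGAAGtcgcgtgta
Rpl6, chr5:121204401-121204520, plus strand: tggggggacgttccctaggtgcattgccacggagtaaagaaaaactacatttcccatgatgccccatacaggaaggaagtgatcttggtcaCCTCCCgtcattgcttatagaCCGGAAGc
CCGGAAG lay after the annotated start in both, and the C-led run of Rpl6 had 6 bases.

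The KO-only genes of H3K27ac were Rpl22, Rpl23a, Rps2 and Rps19bp1, and the WT-only gene was Rpl35a. The peaks were 556 bp, 201 bp, 159 bp and 449 bp wide in KO, and 555 bp in WT at Rpl35a (chr16:33056236-33056790). At Rpl35a, H3K4me3 was listed in both genotypes, at 474 bp in KO and 611 bp in WT. At Rpl22 and Rps2 both genotypes had H3K27ac peaks inside the gene, so that over whole genes with 1000 bp on each side only Rpl23a and Rps19bp1 were left in KO only. The WT peak of Rpl22 was 880 bp wide and lay 1043 bp from the gene end, just past the window.

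Most genes without H3K4me3 at an end were copies, or were marked inside the gene. In all 13 had none in either genotype. Of these, 5 carried H3K4me3 of both genotypes inside the gene, more than 1000 bp from either annotated end, and H3K27ac of both genotypes inside the gene as well, namely the subunit genes Rpl17, Rpl19, Rpl22 and Rps2 and the paralog Rps27l. The widest such H3K4me3 peak was 899 bp in KO and 734 bp in WT at Rpl17, 783 bp and 611 bp at Rpl19, 793 bp and 564 bp at Rpl22, 653 bp and 689 bp at Rps2, and 1002 bp and 896 bp at Rps27l. Counted over whole genes, H3K4me3 was therefore present at 72 of 72 subunit genes in KO and at 70 in WT, the exceptions in WT being Rpl26 and Rpl6. H3K27ac was present at 71 of 72 in KO, without Rpl35a, and at 71 in WT, without Rpl23a. Just outside the window, Rps27l had its nearest H3K4me3 peak 1091 bp from a gene end in KO and 1019 bp in WT, and the farthest gene inside it was Rpl38, at 601 bp in KO and 503 bp in WT.

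The paralogs and copies fell into a marked and an unmarked set. Rpl22l1, the paralog of Rpl22, had H3K4me3 of 743 bp in KO and 691 bp in WT and H3K27ac of 793 bp and 880 bp. Rpl7l1, a factor of ribosome assembly related to Rpl7, had H3K4me3 of 691 bp in KO and 658 bp in WT and H3K27ac of 488 bp and 660 bp, although the widest H3K4me3 peaks of the genotypes lay at different ends of the gene. Rpl36al, which shares an end with Mgat2, had H3K4me3 of 1178 bp in KO and 1399 bp in WT. Rpl3l, the striated muscle form of Rpl3, had H3K4me3 of 312 bp in KO and 440 bp in WT, but these peaks lay near the end that it shares with Msrb1, so the gene they belong to cannot be told apart. Rps27l, a paralog of Rps27 that p53 regulates, had only H3K27ac at its ends, at 1051 bp in KO and 1010 bp in WT.

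Rpl10l and Rpl39l, which are expressed mainly in testis, had no peak of any mark at their ends in either genotype. Rps27rt, Rpl32l, Rpl31-ps12, Rpl34-ps1, Rps23rg1 and Rpl37rt likewise had none. Inside Rpl37rt, KO had an H3K4me3 peak of 153 bp and an H3K4me1 peak of 175 bp, and inside Rps23rg1, WT had an H3K27me3 peak of 230 bp. Copies with near-identical sequence can share or lose reads in mapping, so the lack of a peak at such a gene is uncertain.

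The second comparison asked whether peaks at the ribosomal protein genes widened as others did. H3K4me3 peaks were a little wider in KO, by less than over all genes, and H3K27ac peaks were narrower to about the same degree. Among the 70 genes with H3K4me3 in both genotypes the median width was 762.5 bp in KO and 677.5 bp in WT, and the median KO over WT ratio per gene was 1.05 (interval 1.01 to 1.09), with 45 genes wider and 25 narrower in KO. Over the 9378 genes with the mark in both, the widths were 893 bp and 735 bp and the ratio was 1.18 (interval 1.17 to 1.19), and the mitochondrial ribosomal protein genes had 1.12 (interval 1.06 to 1.22). Peaks were wider in KO by at least 25% at 19 of the 70 (27.1%), against 41.9% of all genes, and narrower by at least 20% at 11 (15.7%), against 8.02%. The intervals of the cytosolic genes and of all genes do not overlap, but genes of 1 pair of lists are not replicates, and this is a description.

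H3K4me3 was 3.11 times as wide in KO at Rpl7a, a gene of the large subunit, with 1018 bp against 327 bp. Ends of Med22 and Surf1 lie within 1000 bp of its own. There the WT list held 2 peaks, of 327 bp and 322 bp, with a gap over the annotated start, while a single KO peak overlapped both, so that the ratio compares a whole with a part. Rps10 had 574 bp in KO and 230 bp in WT, Rpl28 1096 bp and 450 bp, and Rps16 686 bp and 287 bp, in each case with the WT peak within the KO peak. Among the lowest ratios were those of Rps15, with 430 bp in KO and 792 bp in WT, Rpl23a, with 175 bp and 322 bp, and Rpl8, with 500 bp and 829 bp. At Rpl8 a second KO peak of 133 bp lay within the stretch of the single WT peak.

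The widest H3K4me3 peak lay at Rpl7 in both genotypes, with 1827 bp in KO and 1894 bp in WT. Rpl7 also had the widest H3K27ac, with 1520 bp in KO and 2090 bp in WT, and the widest H3K27me3, with 1746 bp and 1543 bp. Rpl37a had H3K4me3 of 1520 bp in KO and 938 bp in WT. Rpl38, a large subunit gene known for its role in translating Hox messages, had 1453 bp in KO and 1519 bp in WT. These peaks lay away from the annotated ends, as given above, but covered the RefSeq start of Rpl38 inside the annotated gene in both genotypes.

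For H3K27ac, the 71 shared genes had a median width of 665 bp in KO and 741 bp in WT and a median ratio of 0.928 (interval 0.827 to 0.992), with 26 wider and 45 narrower in KO, against 0.916 over all genes. Peaks were wider in KO by at least 25% at 13 (18.3%, against 14.5% of all genes) and narrower by at least 20% at 23 (32.4%, against 31.9%). The highest ratios were those of Rpl12, with 560 bp in KO and 168 bp in WT, Rps9, with 760 bp and 308 bp, Rps6, and Rps13, with 1031 bp and 673 bp. At Rps9 a second WT peak of 112 bp lay within the stretch of the single KO peak, so that its ratio compares a whole with a part. The lowest were those of Rpl18, with 229 bp in KO and 530 bp in WT, Rplp1, Rpl3l, with 337 bp and 676 bp, and Rpl14, with 494 bp and 873 bp. The peaks of Rpl18 lay at an end near Fam83e, and over its RefSeq start inside the annotated gene H3K27ac was 720 bp in KO and 752 bp in WT.

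The widths of the genotypes followed each other across genes. Spearman's rho between KO and WT widths was 0.62 for H3K4me3 (70 genes), 0.66 for H3K27ac (71 genes), 0.36 for H3K4me1 (46 genes) and 0.57 for H3K27me3 (24 genes). The ratios of H3K4me3 and H3K27ac had a rho of 0.05 (68 genes), so that a gene with wider H3K4me3 in KO was not in general a gene with wider H3K27ac. All points of each value share the same peak lists. The scatter of KO against WT widths shows the genes named here.

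**Figure D2:**
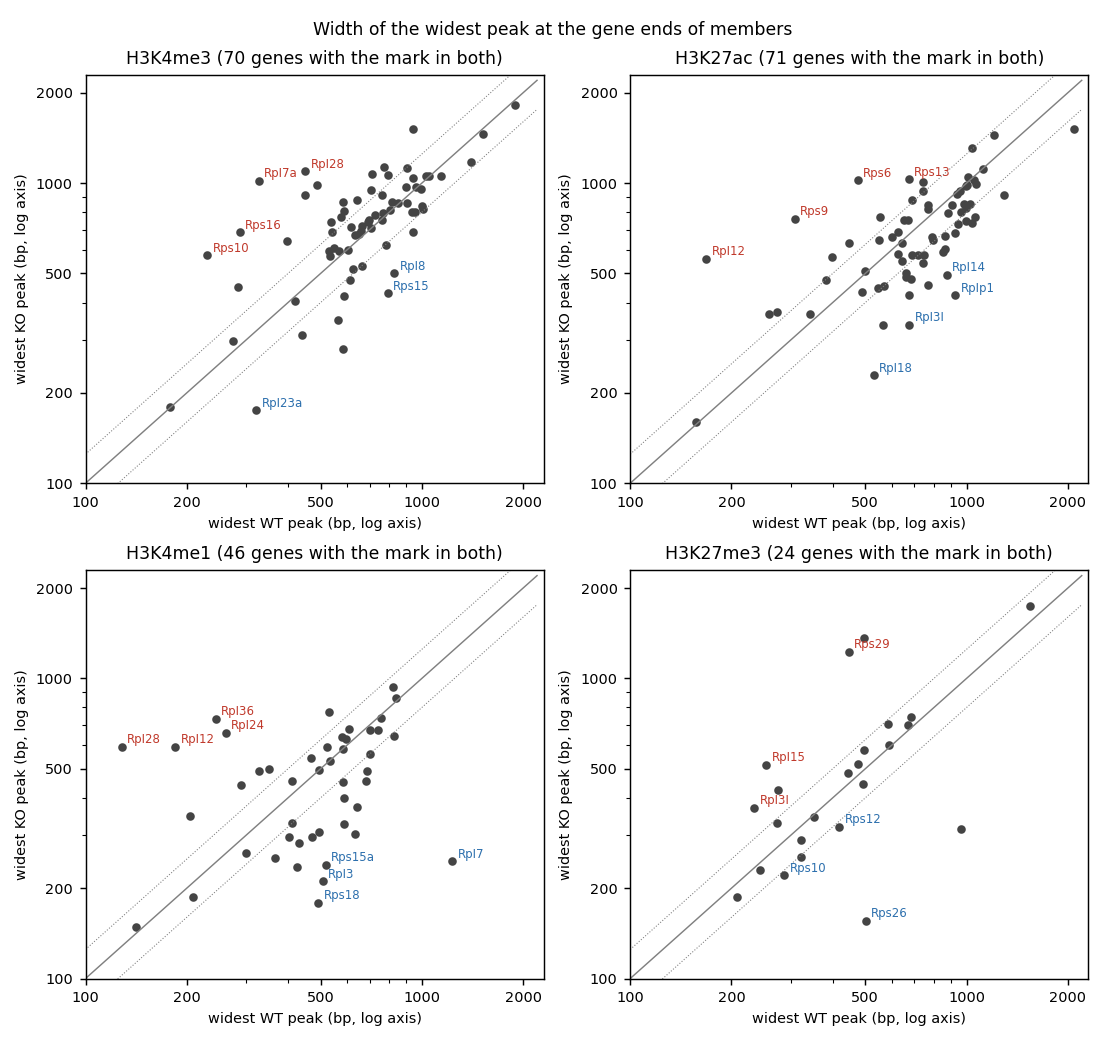
Width of the widest peak at the gene ends in KO (vertical, bp, log axis) and in WT (horizontal, bp, log axis), 1 point for each gene with the mark in both genotypes. The solid line marks equal widths and the dotted lines KO peaks wider by 25% and narrower by 20%, and genes among the 4 highest (red) and 4 lowest (blue) ratios are named. For H3K4me3, 40 of 70 genes lie between the dotted lines, and Rpl7a and Rps10 lie farthest above.

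Along the gene, H3K4me3 reached further into the transcribed part in KO, about as far as over all genes, and hardly further upstream. At the 64 starts with a peak in both genotypes, the downstream edge lay at a median of 436.5 bp after the start in KO and 346.5 bp in WT, and the median shift per start was 74 bp (interval 22 to 114), with KO further at 44 of 64 (68.8%). The upstream edge lay at a median of -321.5 bp in KO and -295.5 bp in WT, and the median shift was -3.5 bp (interval -30 to 6), with KO further upstream at 34 of 64 (53.1%). Over all genes KO peaks reached further by a median of 47 bp on the upstream side (a shift of -47 bp) and 66 bp on the downstream side, with KO further at 68.7% and 68.4% of starts. For mitochondrial ribosomal protein genes the shifts were -48 bp (interval -75 to -11) and 51 bp. With 1 start per gene, the cytosolic genes gave -7 bp and 65 bp. Among single genes, the downstream edge lay at 580 bp in KO and 43 bp in WT at Rpl28. It lay at 1203 bp in KO and 716 bp in WT at Rpl37a, at 525 bp and 159 bp at Rps9, and at 963 bp and 605 bp at Rpl5.

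At 63 starts with H3K27ac in both genotypes, its edges shifted by 18 bp on the upstream side (interval -5 to 46) and by -7 bp on the downstream side (interval -54 to 47). At 40 starts with H3K4me1 in both genotypes, the median downstream shift was -32 bp (interval -73 to -15), and KO reached further downstream at 9 of the 40 (22.5%), where all genes gave -11 bp and 42.3%. At the start itself, H3K4me3 covered 85.7% of starts in KO and 81.8% in WT, against 47.8% and 40.6% of all starts. At 500 bp after the start, H3K4me3 covered 29.9% in KO and 18.2% in WT, close to the 24.5% and 18% of all starts, whereas H3K4me1 and H3K27me3 covered 0% in both genotypes. For these marks the values over all starts at 500 bp were 4.09% in KO and 4.92% in WT for H3K4me1 and 10.8% and 7.24% for H3K27me3. Among 39 genes of at least 3000 bp with a known strand, H3K4me3 lay at the start of 31 in KO and 29 in WT and at the far end of 5 in KO and 4 in WT. These are 79.5% and 74.4% at the start, against 57.1% and 51.0% of 13974 such genes, and 12.8% and 10.3% at the far end, against 4.20% and 2.70%.

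**Figure D3:**
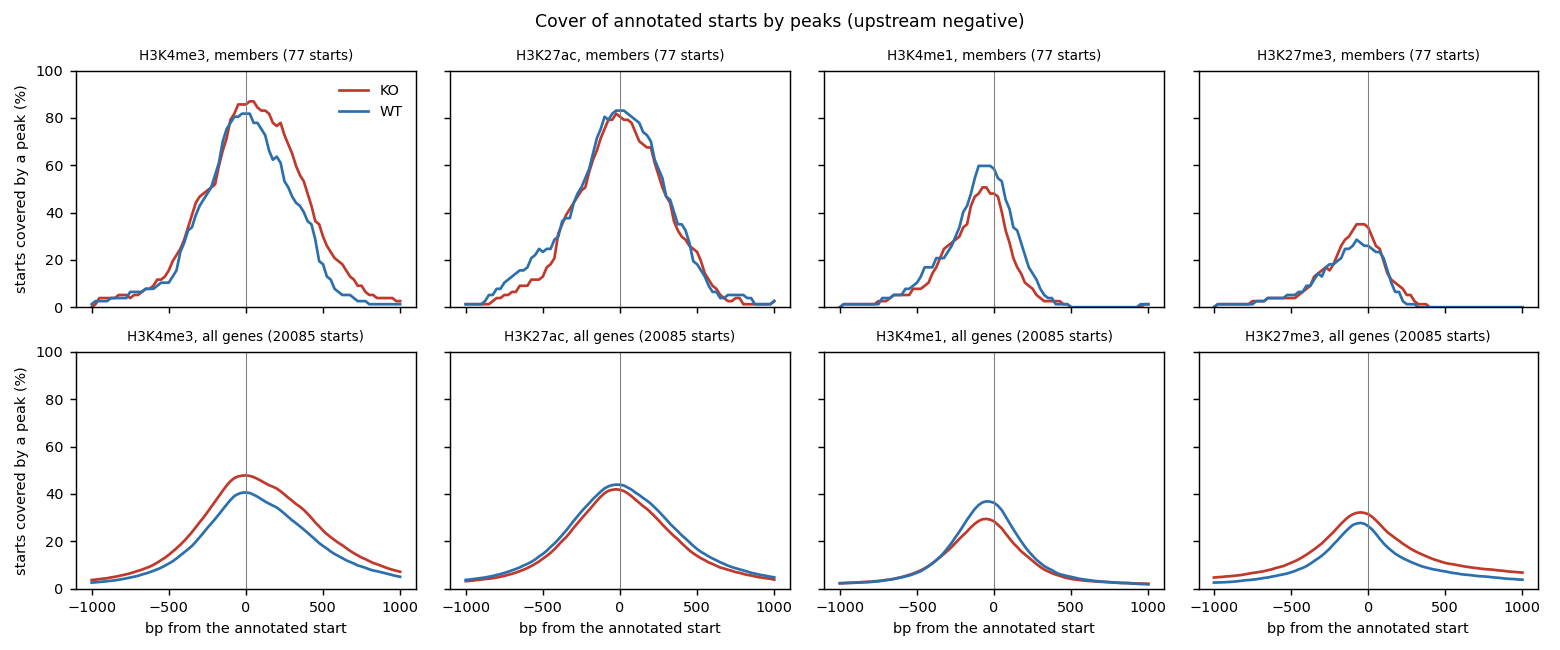
Percentage of annotated starts covered by a peak (vertical) by distance from the start in bp (horizontal, upstream negative), for the 77 RefSeq starts of the ribosomal protein genes (top) and for all 20085 starts (bottom), in KO (red) and WT (blue). At the start, H3K4me3 covered 85.7% of the ribosomal protein starts in KO and 81.8% in WT, and the KO curve lies above the WT curve on the downstream side.

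The third comparison concerned H3K4me1, which more of these genes lacked in KO. It was present at 48 of 86 genes in KO (55.8%, interval 44.7 to 66.5) and at 58 in WT (67.4%, interval 56.5 to 77.2), against 39.4% and 46.6% of all genes. It was listed in WT only at 12 of 60 genes (20.0%), against 19.5% of all genes with the mark in either genotype, and in KO only at 2 of 60 (3.33%), against 4.81%. The share in WT only was thus close to that of all genes. The 12 WT-only genes included Rpl3l, Rpl4, Rpl5, Rpl9, Rpl11, Rpl23, Rpl37a, Rps7, Rps25 and Rps28, and all 12 carried H3K4me3 and H3K27ac in both genotypes. The WT peaks at these genes had a median width of 286 bp and a range of 176 to 535 bp, against a WT median of 512.5 bp at the 46 genes with H3K4me1 in both. Rpl5 and Rpl11, the 5S RNA partners, had WT peaks of 298 bp and 229 bp. Wider WT-only peaks lay at Rpl3l, at 535 bp, and at Rpl4, at 415 bp. The Rpl3l peak lay at the end shared with Msrb1. The Rpl4 peak lay past the far end of the gene, and ends of Snapc5 and Zwilch lie within 1000 bp of an end of Rpl4. Neither gene had H3K4me1 listed within 1000 bp of its RefSeq starts in either genotype. The 2 KO-only genes were Rpl32, with 494 bp, and Rpl7l1, with 141 bp. At Rpl32 the KO peak lay inside the gene, apart from the H3K4me3 and H3K27ac peaks, which covered the other end.

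Mitochondrial ribosomal protein genes had H3K4me1 at 47 in KO and 58 in WT, with 0 KO only and 11 WT only, and the other translation genes at 23 and 30, with 0 and 7. Among the genes with H3K4me1 in both, the median width of the cytosolic set was 472.5 bp in KO and 512.5 bp in WT, with a ratio of 0.934 (interval 0.734 to 1.05) against 0.988 over all genes. Peaks were wider by at least 25% at 9 of 46 (19.6%, against 25.2% of all genes) and narrower by at least 20% at 18 of 46 (39.1%, against 27.6%). The highest ratios were those of Rpl28, with 591 bp in KO and 128 bp in WT, Rpl12, with 591 bp and 185 bp, Rpl36, with 734 bp and 244 bp, and Rpl24, with 658 bp and 261 bp. The lowest was that of Rpl7, where KO had separate peaks of 246 bp and 167 bp within the stretch of a WT peak of 1232 bp. Rps18 had 179 bp in KO and 492 bp in WT, Rpl3 211 bp and 507 bp, and Rps15a 239 bp and 518 bp.

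The fourth comparison concerned H3K27me3, a mark of silent genes that was listed at many of these active genes. It was present at 38 of 86 in KO (44.2%, interval 33.5 to 55.3) and at 29 in WT (33.7%, interval 23.9 to 44.7), against 42.7% and 37.9% of all genes. Every one of these genes also carried H3K4me3 and H3K27ac. In the same genotype, an H3K27me3 peak overlapped each of those marks at 38 of 38 genes in KO and at 29 of 29 in WT. This count is by gene. At 4 genes in KO and 2 in WT several H3K27me3 peaks were listed, and not every peak lay on the active marks. Over all genes with H3K27me3 at an end, the overlap was 72.6% with H3K4me3 and 63.5% with H3K27ac in KO, and 66.9% and 69.3% in WT. For mitochondrial ribosomal protein genes it was 91.7% and 94.4% in KO, and 96.0% and 96.0% in WT. The widest H3K27me3 peaks had medians of 325.5 bp in KO and 419 bp in WT, against 598 bp and 472 bp over all genes. For mitochondrial ribosomal protein genes the medians were 416 bp in KO and 362 bp in WT. In WT the cytosolic set was thus not narrower than that set. Whether these peaks hold H3K27me3 deposited by Polycomb was not tested.

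H3K27me3 was listed in KO only at 14 of the 43 genes with it in either genotype (32.6%), against 17.9% of all such genes, and in WT only at 5 (11.6%), against 7.42%. The 14 KO-only genes were 8 of the small subunit (among them Rps6, Rps7, Rps13, Rps14, Rps15, Rps18 and Rps27a), 4 of the large subunit (Rpl3, Rpl14, Rpl21 and Rpl27a), the stalk gene Rplp1 and the paralog Rpl36al. Their KO peaks had a median width of 203.5 bp and a range of 170 to 485 bp. The widest were those of Rpl21, at 485 bp, Rplp1, at 482 bp, and Rps6, at 407 bp, and that of Rps7 was 170 bp. The 5 WT-only genes included Rpl28, with 477 bp, Rpl22l1, with 378 bp, Rpl24, with 168 bp, and Rpl37a, with 164 bp. When equal numbers of the widest peaks were taken from each list, the split turned round, with 3.49% of the 86 genes in KO only and 11.6% in WT only, against 16.3% and 5.81% with the whole lists. Over all genes the split turned as well. Of the genes with the mark in either list at equal numbers, 3 of 32 ribosomal protein genes (9.38%) were KO only, against 11.9% of all genes, and 10 of 32 (31.3%) were WT only, against 17.8%. The higher share of KO-only genes in this set than over all genes was therefore not seen at equal numbers. Mitochondrial ribosomal protein genes had 12 KO only and 1 WT only of 37, and the other translation genes 1 and 1 of 22.

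**Figure D4:**
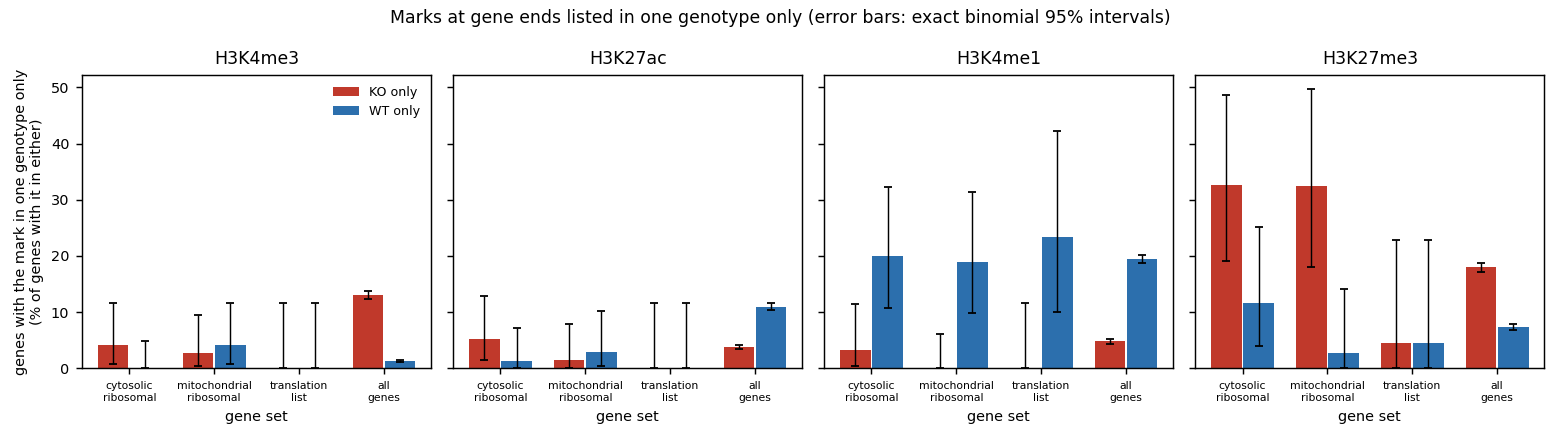
Percentage of genes with a mark in KO only (red) or in WT only (blue) among genes with the mark in either genotype (vertical), for the cytosolic and mitochondrial ribosomal protein genes, other translation genes and all genes, with exact binomial 95% intervals as error bars. For H3K4me3 the cytosolic genes stand at 4.11% KO only against 13.0% over all genes, and for H3K27me3 at 32.6% against 17.9%. The whole lists are drawn. At equal numbers of peaks the shares in KO only were 4.11% and 8.95% for H3K4me3, and 9.38% and 11.9% for H3K27me3.

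At the 24 genes with H3K27me3 in both, the median width was 435.5 bp in KO and 445.5 bp in WT and the median ratio 1.06 (interval 0.899 to 1.20), with 14 wider and 10 narrower in KO, whereas over all genes the widths were 649 bp and 496 bp and the ratio 1.22 (interval 1.20 to 1.24). Peaks were wider by at least 25% at 5 of 24 (20.8%, against 47.9% of all genes) and narrower by at least 20% at 5 (20.8%, against 13.4%). Sets more like this one gave lower ratios than all genes. The ratio was 1.16 (interval 1.00 to 1.60) for mitochondrial ribosomal protein genes and 1.13 (interval 1.01 to 1.61) for other translation genes. It was 1.15 for all genes with H3K4me3 and H3K27ac in both genotypes. These ratios lie within the interval of the cytosolic genes. Among the highest ratios, Rps29 had 1227 bp in KO and 447 bp in WT at the same place, and Rpl15 had 515 bp and 254 bp. The lowest was that of Rps26, with 156 bp in KO and 501 bp in WT. Over these 24 genes the ratios of H3K4me3 and H3K27me3 had a Spearman's rho of -0.51, given as a description.

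Over the 4 marks together, the most common state in KO was all 4 marks, at 30 genes, followed by H3K4me3, H3K27ac and H3K4me1 at 18, H3K4me3 and H3K27ac at 16, and these 2 with H3K27me3 at 8, which are 34.9%, 20.9%, 18.6% and 9.30% of the set, against 23.3%, 10.6%, 7.63% and 3.70% of all genes. In WT the order was H3K4me3, H3K27ac and H3K4me1 at 30 genes, all 4 marks at 27, H3K4me3 and H3K27ac at 10, and these with H3K27me3 at 2, or 34.9%, 31.4%, 11.6% and 2.33%, against 14.7%, 23.5%, 4.33% and 1.00% of all genes. No mark was listed at an end of 10 genes in KO (11.6%) and 13 in WT (15.1%), against 33.2% and 34.6% of all genes. Of the 76 genes with any mark, 39 (51.3%) had the same marks in both genotypes, against 55.0% of all marked genes. All marks were present in both genotypes at 20 of the 86 genes, against 3923 of 20665.

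To compare genes with the same active marks, the 68 genes with H3K4me3 and H3K27ac in both genotypes were set beside the 8606 genes of the same state. H3K4me1 was then present at 47 of 68 in KO (69.1%) and 57 in WT (83.8%), against 76.8% and 89.3%, and it was listed in WT only at 12 of 59 (20.3%), against 15.9%. H3K27me3 was present at 38 of 68 in KO (55.9%) and 29 in WT (42.6%), against 61.4% and 56.8%, and was listed in KO only at 14 of 43 (32.6%), against 15.5%, and in WT only at 5 of 43 (11.6%), against 8.59%. These H3K27me3 shares rest on the whole lists, and for genes of this state they were not counted again at equal numbers of peaks. The median H3K4me3 ratio of the 68 was 1.05 (interval 1.01 to 1.09), against 1.17 (interval 1.16 to 1.18) for the 8606. For H3K27ac the ratios were 0.915 and 0.916.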

How the data were processed

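Each of the 8 peak lists that the authors deposited gives the chromosome, first and last base and width of every peak. Their unit class is other, meaning deposited positions and widths in bp, which were taken without rescaling. The lists carry no score or p per peak. The submitters' processing notes name MACS2 2.1.2.1, Bowtie2 2.2.6 and deepTools 3.1.1, beside cutadapt 1.14, Trim Galore 0.4.4 and SAMtools, and the builds mm10 and R64 (yeast). How peaks were thresholded and whether replicates were pooled first is not given in the sources used here. The protocol also names H3K9me3, not analysed here. The depth of each sample is unknown.

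Peaks within 1000 bp of either end of a gene (GRCm38.p6 RefSeq) were assigned to it with pandas 2.3.3 and numpy 2.4.6 in Python 3.11.15, intervals came from scipy 1.17.1, and figures from matplotlib 3.10.9. Width was that of the widest peak. Shares carry exact Clopper-Pearson intervals and medians exact binomial order-statistic intervals, both at 95%. No test between genotypes could be run. The genes and lists were chosen with earlier results of these data known. The genes named are, for each mark, those listed in 1 genotype only, the 4 widest and the 4 highest and lowest ratios, those without H3K4me3, and fixed names. The paralog group held 7 listed genes and 6 added once the gene table was read. Distances from the start used the RefSeq promoter starts, which have strand. Alternatives were another window (500 or 2000 bp), peaks of at least 200 bp, equal numbers of peaks, the annotated start alone, isolated genes, subunit genes alone, a stricter overlap of KO and WT peaks, summed width, and whole genes. The steps were tested on simulated lists with known answers. A planned comparison of paralog proteins was not run. A few of the genes enter the counts and are not reported by name.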

Additional observations from a re-analysis of the deposited data

How the results depend on the processing

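Of 212 values over 12 alternatives, 9 of them planned and 3 chosen after seeing the data, 202 stayed within the main interval, 10 moved and 0 were classed as reversed. The median H3K27me3 width ratio was classed as staying although it went from 1.063 to 0.980 with the annotated start alone. Its main interval, 0.899 to 1.205, holds both directions. H3K27me3 moved most. Its share in KO only was 8.14% of the 86 genes with peaks of at least 200 bp and 3.488% when each list gave the same number of its widest peaks, where its share present in KO was 25.58%. At equal numbers more genes were in WT only (11.63%) than in KO only, which the main lists had the other way, and that alternative shortens the KO list by construction. Among the 56 genes without another gene end within 1000 bp, H3K27ac in WT only and H3K4me1 in KO only were both at 0%. Presence of H3K4me3 in KO was 91.86% over whole genes. For the 72 subunit genes alone, H3K4me3 was present at 94.44% in KO and 91.67% in WT, and H3K27ac at 95.83% and 93.06%. The median width ratio stayed between 1.040 and 1.083 for H3K4me3, 0.901 and 0.980 for H3K27ac and 0.868 and 0.968 for H3K4me1, and between 0.980 (annotated start alone) and 1.092 for H3K27me3. No paired analysis was possible because the lists hold no value per sample, and leaving out replicates was not run for the same reason. The unknown depth limits what a missing or narrow peak means.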
